A study of Homo sapiens with 24 samples.

Results

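TALL-1 (TALL1 in the labels) is one of 4 human cell lines of T-ALL, acute lymphoblastic leukaemia of T cells, in this array series, and its baseline is described here against that of the other lines. The 3 TALL-1 arrays from cells kept in the solvent DMSO were set against 9 DMSO arrays, 3 each of SUPT11, P12.ICHIKAWA and RPMI.8402, out of 24 arrays in all. Cells of every group, treated or not, were kept for 16 h in medium with 0.5% DMSO. The other 12 arrays held the same lines after the compound NVS-ZP7-3, an inhibitor of the zinc transporter SLC39A7 (ZIP7), and are used below to repeat the comparison between lines and to describe genes whose difference changed direction. Each line stands for a single leukaemia and the labels give no genotype, so a difference between TALL-1 and the others is one between individual lines. Whether arrays of one group came from separate cultures is not stated, so a p-value here measures only how far these arrays differ, which may be technical spread.

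T-ALL arises from developing T cells of the thymus. Most cases carry activating changes of the Notch1 receptor, whose cleaved intracellular part joins the DNA-binding protein RBPJ and switches on genes such as HES1, NRARP, DTX1 and MYC. Cases are further divided by which transcription factor gene is switched on out of place, among them TAL1, LMO1, LMO2 and NKX2-1, and by the stage of thymocyte development that the cells resemble. The gene lists below follow these features.

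Levels are log2 values as deposited. The lowest value of every array was a floor of 2.18, and 52.8 to 53.9% of the probe sets of a DMSO array lay within 0.1 of it. Some probe sets repeated a higher value of their own. NKG7 read 3.41 on all SUPT11 DMSO arrays, CD7 5.45 on all those of RPMI.8402 and PTCRA 4.06 on SUPT11 arrays 1 and 2. Whether such values are background was not tested, and some pass a filter at log2 4. A difference that starts from the floor is a lower limit, and one that starts from such a value may be. Of 19775 genes represented on the arrays, 10442 were at log2 4 or more on at least 3 of the 12 arrays and were tested. A gene was called when its limma adjusted p (Benjamini-Hochberg) was below 0.05 and its log2 difference at least 1. It was set apart when, in addition, all 3 TALL-1 arrays lay above, or all below, the other 9 and the TALL-1 mean was at least 1 from the nearest line mean. Most called genes named below were picked for large differences on these same arrays. An adjusted p printed with such a gene follows from that choice and is no separate support. Pearson correlations over genes (not independent replicates) were 0.993 to 0.998 within groups, while those of TALL-1 arrays were 0.841 to 0.847 with P12.ICHIKAWA, 0.803 to 0.810 with RPMI.8402 and 0.731 to 0.738 with SUPT11. RNA integrity was read from ACTB, whose 3' probe set exceeded its 5' probe set by 2.01 ± 0.057 in TALL-1 (SD, n = 3), against 1.32, 1.99 and 2.13 in SUPT11, P12.ICHIKAWA and RPMI.8402. For GAPDH the same measure was 0.248 ± 0.026 in TALL-1, against 0.313, 0.276 and 0.140, so the 2 controls ordered TALL-1 and SUPT11 differently.

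T cell markers were present in TALL-1, where 8 of 9 were at log2 4 or more on all 3 arrays, with CD3D the brightest at 14.88, and CD5 was near the floor. Of the markers of B cells, platelets and epithelial cells, no member with a probe set reached log2 4 on all 3 TALL-1 arrays, and the highest means were 2.35 for CD79B and 2.22 for CDH1. Of 8 markers of NK and cytotoxic cells, 2 did. NKG7, a granule protein, was at 8.24 in TALL-1, against 3.41, 8.87 and 9.13 in SUPT11, P12.ICHIKAWA and RPMI.8402. KLRF1, an NK cell receptor, differed in TALL-1 by 2.89 ± 0.13 (SE; limma adjusted p = 4.25e-09) from the mean of the other lines, which were at 8.71, 2.18 and 2.33. Both were called higher than that mean. Some arrays held transcripts of other blood cells. LYZ, the lysozyme of myeloid cells, read 5.43, 8.62 and 2.18 on TALL-1 arrays 1 to 3, against 4.28, 2.18 and 12.54 on RPMI.8402 arrays 1 to 3. HBB, beta-globin, read 9.42, 2.32 and 14.65 on those RPMI.8402 arrays and stayed at a mean of 2.23 in TALL-1. The log2 of the summed levels of 10 myeloid markers spanned 5.50 to 8.76 on TALL-1 arrays and 5.50 to 12.8 on RPMI.8402 arrays. In TALL-1, 9 of the 10 were within 0.1 of the floor on all 3 arrays, so its sum followed LYZ. RPMI.8402 array 3 also had S100A8 at 9.61 and TYROBP at 6.64. The part of such transcripts in other results was not tested. Without TALL-1 array 2 and RPMI.8402 array 3, 3139 genes were called in place of 3184, an alternative chosen after seeing the data.

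Of the tested genes, 1298 (12.4%) were called higher and 1886 (18.1%) lower in TALL-1 than in the mean of the other lines, 30.5% in all. These shares are the background for every list below. At an adjusted p below 0.05 alone, 77.1% would have passed, and 77.6%, 68.4% and 69.2% against SUPT11, P12.ICHIKAWA and RPMI.8402. In 31.7% of genes the TALL-1 arrays did not overlap the other 9. After quantile normalization the calls were split 1662 higher and 1573 lower, and the median difference over all tested genes was 0.054, against -0.044 as deposited. Against single lines, 3860 genes (37.0%) were called from SUPT11, 2936 (28.1%) from RPMI.8402 and 2716 (26.0%) from P12.ICHIKAWA. The split against SUPT11 was 1769 higher and 2091 lower, with 56.4% of the calls higher after quantile normalization in place of 45.8%, and against RPMI.8402 it was 1327 higher and 1609 lower, with 58.8% in place of 45.2%. Set apart from all other lines were 418 genes that were higher (4.0%) and 532 that were lower (5.09%), which became 534 and 415 after quantile normalization. Of those higher, 44 were below log2 2.5 on all 9 arrays of the other lines, and of those lower, 173 were below log2 2.5 on all 3 TALL-1 arrays.

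**Figure D1:**
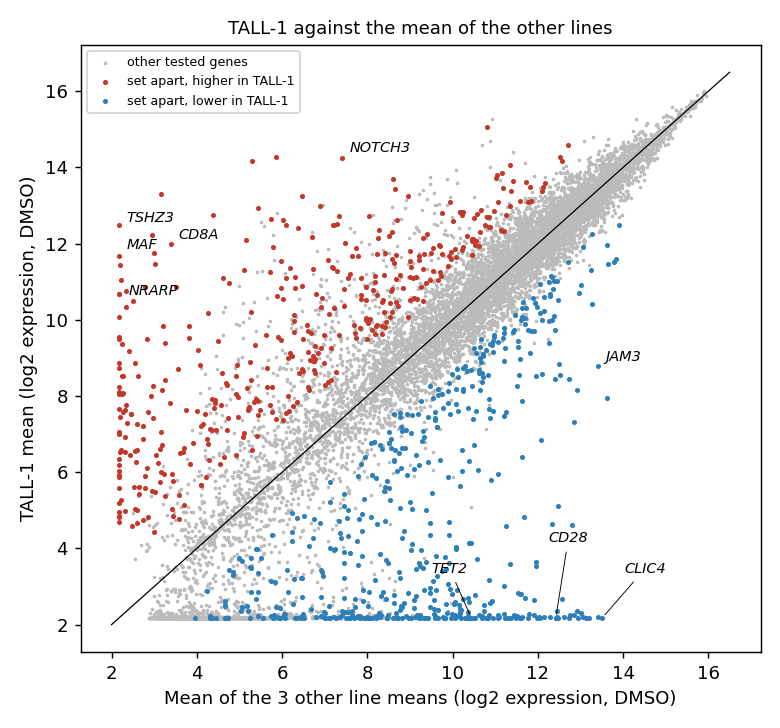
Each point is a tested gene, with its mean over the 3 other line means on the x axis and its TALL-1 mean on the y axis (both log2 expression, DMSO arrays); red and blue points are set apart, and the line marks equal expression. The red points at the left edge are genes at the floor of 2.18 in the other lines, led by TSHZ3 at 12.48 in TALL-1, and the blue points along the bottom are genes at the floor in TALL-1, such as CLIC4.

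TALL-1 expressed 3 genes strongly that the other lines did not show. TSHZ3, a teashirt-family zinc finger transcription factor known from smooth muscle and neural development, read 12.38, 12.42 and 12.64 on the TALL-1 arrays, against 2.18 on all 9 others. MAF encodes c-MAF, a bZIP transcription factor that drives IL4 in helper T cells and is translocated in some myelomas. It read 11.54, 11.86 and 11.60 in TALL-1, against 2.18 on all 9 others. CPA4, a metallocarboxypeptidase that trims peptides from their C terminus, read 11.52, 11.35 and 11.43 in TALL-1. In the other lines CPA4 was at 2.18 on every SUPT11 and P12.ICHIKAWA array and at 2.19, 2.21 and 2.28 on those of RPMI.8402. The groups did not overlap for any of the 3 genes. They were picked for this pattern, so no test is given.

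The families of these genes gave mixed counts. Of 9 tested members of the MAF family and its bZIP partners, 4 were called higher and 2 lower. Besides MAF, those higher were MAFG, a small MAF protein, at 6.59 in TALL-1, against 5.17 to 5.47 in the other lines, NFE2L3 and BACH1, a haem-regulated repressor at 12.40, against 10.53, 11.81 and 11.16 in SUPT11, P12.ICHIKAWA and RPMI.8402. NFE2, the erythroid partner, was at the floor in TALL-1 and at 8.93 in RPMI.8402, and MAFF, a small MAF protein, was at 2.21 in TALL-1 and at 6.34 in SUPT11. NFE2L1, NFE2L2 (NRF2) and BACH2 were at 12.44, 11.84 and 9.05 in TALL-1, differed from the mean of the other lines by -0.12, 0.29 and -0.47, and were not called. BACH1 lost its call when all probe sets of a gene were averaged (0.41). Of 7 tested teashirt and zinc finger homeobox genes, 2 were higher and 1 lower, the second higher one being ZEB1, a repressor of epithelial genes, at 13.85 in TALL-1, against 12.17, 12.66 and 13.00 in SUPT11, P12.ICHIKAWA and RPMI.8402. Its relative ZEB2 was the lower one, at the floor in TALL-1, against 5.01, 3.17 and 2.72. ADNP, ADNP2, TSHZ1 and ZFHX3 had TALL-1 means of 14.39, 13.63, 11.30 and 8.89, differed by -0.03, -0.20, 0.43 and -0.15, and were not called. Of 7 tested metallocarboxypeptidases and their inhibitor latexin, 2 were higher and 4 lower. LXN, latexin, was at 8.60 in TALL-1, and at 7.81, 6.98 and 2.59 in SUPT11, P12.ICHIKAWA and RPMI.8402. CPA3, the mast cell enzyme, was at the floor in TALL-1 and at 8.69 in RPMI.8402, and CPM was at the floor in TALL-1 and at 6.13 in SUPT11. CPA5 was at 2.51 in TALL-1 and at 8.02, 2.32 and 2.29 in SUPT11, P12.ICHIKAWA and RPMI.8402. CPE, which trims peptide hormones, was at the floor in TALL-1 and at 5.20 in SUPT11. CPD was at 11.97 in TALL-1, against 12.21, 12.10 and 11.47, and was not called.

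Of 10 genes that have been reported to follow MAF in myeloma or T cells, 8 did not pass the filter and the other 2 were lower in TALL-1. CCND2, the D-type cyclin that c-MAF induces in myeloma, was at the floor of 2.18 on all 3 TALL-1 arrays. It read 13.97, 13.87 and 13.94 in SUPT11, 11.60, 11.49 and 11.60 in P12.ICHIKAWA and 6.05, 5.78 and 8.75 in RPMI.8402, and the difference from their mean was -8.60 ± 0.49 (SE; adjusted p = 4.48e-08). ITGB7, an integrin subunit of gut homing, was at 2.35 in TALL-1 and at 7.11, 2.35 and 2.34 in SUPT11, P12.ICHIKAWA and RPMI.8402, so its call came from SUPT11.

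Over the 12 arrays, the genes whose pattern was most like that of TSHZ3 were PTGER3, SHC3 and ZNF135, each with a Pearson r above 0.9998. For MAF they were SHC3, AKNAD1 and TSHZ3 (r = 0.9997 to 0.9998), and for CPA4 they were AKNAD1, SHC3 and NRARP (r = 0.9999). These values describe genes that are high on the same 3 arrays and share the floor on the others.

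The sequence before the start of each of the 3 genes is shown with those of HES1 and NRARP, since NRARP was among the genes highest in TALL-1 and HES1 is a known direct target of Notch. The windows are the 250 bases upstream in RefSeq, assembly GRCh38.p14, printed in the direction of the gene. They lie at chr19:31349437-31349686 on the minus strand (TSHZ3), chr16:79600738-79600987 on the minus strand (MAF), chr7:130292911-130293160 on the plus strand (CPA4), chr9:137302272-137302521 on the minus strand (NRARP) and chr3:194135898-194136147 on the plus strand (HES1). Capitals mark the core of the RBPJ motif, TGGGAA, searched on both strands.
TSHZ3: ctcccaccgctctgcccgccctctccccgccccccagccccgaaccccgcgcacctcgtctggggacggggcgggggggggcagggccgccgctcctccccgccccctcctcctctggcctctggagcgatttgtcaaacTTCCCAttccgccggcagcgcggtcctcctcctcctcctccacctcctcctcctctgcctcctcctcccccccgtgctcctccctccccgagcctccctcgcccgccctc
MAF: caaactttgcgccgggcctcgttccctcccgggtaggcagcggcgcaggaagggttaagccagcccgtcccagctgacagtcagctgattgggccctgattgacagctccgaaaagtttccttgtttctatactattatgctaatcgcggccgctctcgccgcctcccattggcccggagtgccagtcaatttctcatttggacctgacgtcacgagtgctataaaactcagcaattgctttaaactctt
CPA4: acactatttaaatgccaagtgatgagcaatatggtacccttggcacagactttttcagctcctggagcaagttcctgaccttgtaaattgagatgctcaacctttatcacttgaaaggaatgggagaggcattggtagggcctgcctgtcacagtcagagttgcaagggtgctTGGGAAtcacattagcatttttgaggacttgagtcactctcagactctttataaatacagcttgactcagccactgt
NRARP: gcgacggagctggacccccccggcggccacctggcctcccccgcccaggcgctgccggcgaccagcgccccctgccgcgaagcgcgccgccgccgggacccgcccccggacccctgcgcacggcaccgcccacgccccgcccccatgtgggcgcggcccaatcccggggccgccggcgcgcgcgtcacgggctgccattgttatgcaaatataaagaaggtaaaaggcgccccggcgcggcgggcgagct
HES1: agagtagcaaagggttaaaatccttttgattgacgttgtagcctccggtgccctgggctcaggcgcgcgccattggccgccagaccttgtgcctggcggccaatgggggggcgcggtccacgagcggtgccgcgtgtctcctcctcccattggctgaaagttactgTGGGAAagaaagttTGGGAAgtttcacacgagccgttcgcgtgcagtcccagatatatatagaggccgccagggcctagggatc
HES1 held 2 matches, which begin 84 and 70 bases before its start. CPA4 held 1, which begins 77 bases before its start, and TSHZ3 held 1 on the other strand. NRARP and MAF held none in these windows. The motif is short and was found in 20.85% of all 35116 windows of this length, so a match describes the letters only. GC content was 75.6% upstream of TSHZ3, 54.4% upstream of MAF and 44.4% upstream of CPA4.

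The other 9 of the 12 genes farthest above the other lines in TALL-1 had varied known roles. NRARP, which limits Notch signalling, read 11.21, 11.01 and 10.91 in TALL-1, against at most 2.34 on the other 9 arrays. HEY1, a repressor of the HES family, read 12.20, 12.26 and 12.21 in TALL-1, against 2.22 to 4.16 on the others. NLGN4X, a synaptic adhesion protein, read 13.40, 13.21 and 13.26 in TALL-1, against 5.38, 5.51 and 4.48 in RPMI.8402 and 2.18 in both other lines. Both SUPT11 and P12.ICHIKAWA thus lacked a signal for NLGN4X, and RPMI.8402 had a low one. AMOTL2, an angiomotin that binds YAP, averaged 10.69, PTGER3, a prostaglandin E2 receptor, 10.67, VANGL2, a planar polarity protein, 10.76, and NSG1, an endosomal protein of neurons, 10.50. CLEC4A, a C-type lectin of myeloid cells, averaged 10.35 and PRKG2, a cGMP-dependent kinase, 10.08. None of these 6 exceeded 2.84 on any array of the other lines.

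At the other end, genes bright in all 3 other lines were at or near the floor in TALL-1. CLIC4, a chloride intracellular channel protein, read 2.18 on all 3 TALL-1 arrays, against 13.61 to 13.67 in SUPT11, 13.12 to 13.34 in P12.ICHIKAWA and 13.65 to 13.73 in RPMI.8402. PSAT1, the aminotransferase of serine synthesis, read 2.18 on all 3 TALL-1 arrays, against 13.39 ± 0.084, 13.15 ± 0.019 and 13.05 ± 0.046 in SUPT11, P12.ICHIKAWA and RPMI.8402 (SD, n = 3). The enzyme before it in the pathway, PHGDH, was present in every line at 12.18, 11.93, 11.47 and 11.70 in the order TALL-1, SUPT11, P12.ICHIKAWA, RPMI.8402, and was looked up because of PSAT1. YBX3, a cold-shock domain protein, averaged 2.20 in TALL-1, against 13.06 to 13.59 in the other lines, and BEX3, a signalling adaptor of the nerve growth factor receptor, 2.18 against 12.60 to 13.67. The other 8 were ITPRID2, MIER3, PKP4 (a plakophilin), CRNDE (a long noncoding RNA), RNF130, JMY (an actin nucleator), PIP4K2C and SLAIN1 (a microtubule plus-end protein). Their TALL-1 means were 2.18 to 2.37 and their means in the other lines 11.80 to 13.44.

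**Figure D2:**
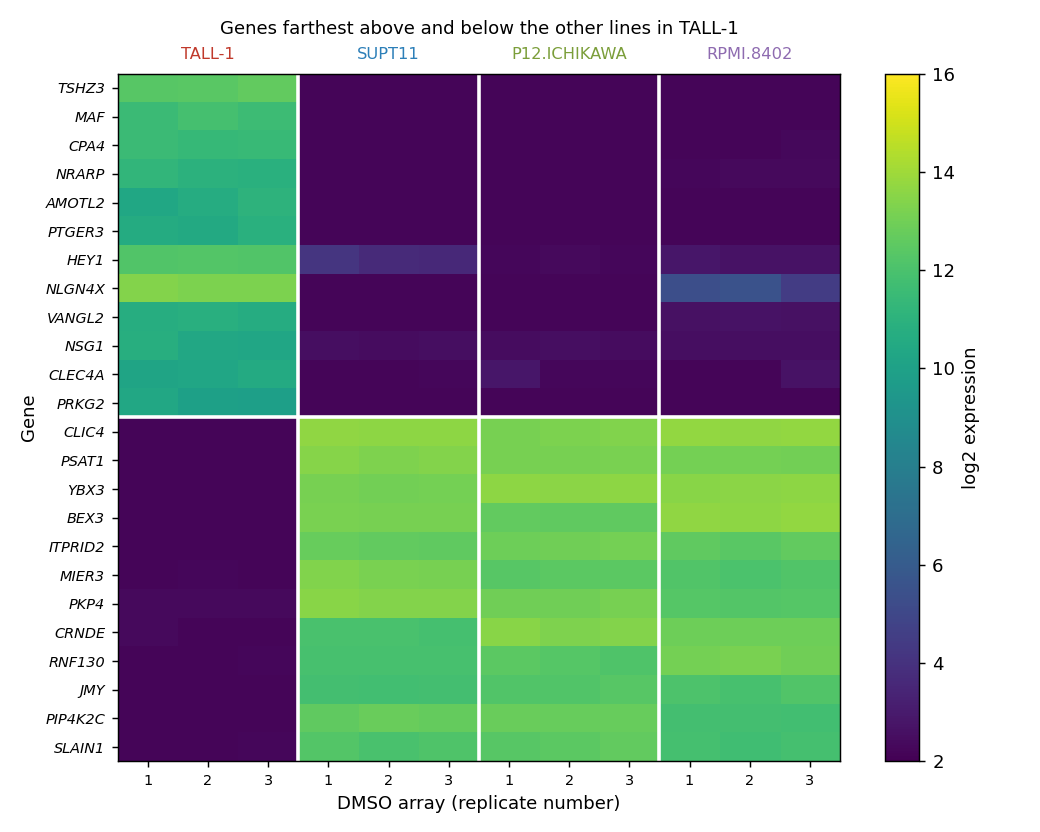
Colour gives log2 expression for 24 genes (rows) on the 12 DMSO arrays (columns, grouped by line, TALL-1 at the left): the 12 genes farthest above the nearest other line in TALL-1 above the white line and the 12 farthest below it beneath. The upper 12 are dark outside TALL-1 except for a low signal of NLGN4X in RPMI.8402 and of HEY1 in SUPT11, and the lower 12 are dark in TALL-1.

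Against each line alone, the largest differences often belonged to the other line. CDK6, a G1 kinase, was at 15.27 in TALL-1 and at 2.34, 15.21 and 15.22 in SUPT11, P12.ICHIKAWA and RPMI.8402, so its difference lay against SUPT11. UCHL1, a neuronal deubiquitinase, was at the floor in TALL-1 and at 14.06 in SUPT11, and also at the floor in both other lines. LITAF, a membrane protein of late endosomes, was at 13.60 in TALL-1, and at 14.74, 3.04 and 12.51 in SUPT11, P12.ICHIKAWA and RPMI.8402. PEBP1, an inhibitor of RAF, was at 13.94 in TALL-1, and at 14.12, 13.81 and 2.31 in SUPT11, P12.ICHIKAWA and RPMI.8402. H3C3, a histone H3 gene, and UBLCP1, a proteasome phosphatase, were at 13.58 and 13.05 in TALL-1 and at 2.51 and 2.58 in RPMI.8402, and both were bright in the other lines. Other large differences were shared by pairs of lines. EFEMP1, a fibulin, was at 12.56 in TALL-1 and 12.15 in RPMI.8402 and at the floor in SUPT11 and P12.ICHIKAWA. ZNF595, a zinc finger gene, was at 14.28 in TALL-1, and at 2.20, 2.57 and 12.83 in SUPT11, P12.ICHIKAWA and RPMI.8402. FAT1, an atypical cadherin, was at 2.56 in TALL-1, and at 2.80, 13.97 and 13.12 in SUPT11, P12.ICHIKAWA and RPMI.8402.

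Some of these genes did set TALL-1 apart. CD300A, an inhibitory receptor of leukocytes, was at 14.17 in TALL-1, and at 2.18, 9.80 and 3.91 in SUPT11, P12.ICHIKAWA and RPMI.8402. Its RPMI.8402 arrays read 2.66, 2.71 and 6.36, the last being the array with blood transcripts. GPR160, an orphan receptor, was at 12.93 in TALL-1, against 6.65, 7.10 and 2.57. On the low side, CD59, which shields cells from complement, was at 2.20 in TALL-1, against 11.31, 13.68 and 14.20 in SUPT11, P12.ICHIKAWA and RPMI.8402. PRNP, the prion protein, was at 2.21 in TALL-1, against 11.00, 13.61 and 12.28. MARCKS, a substrate of protein kinase C, was at 2.25 in TALL-1, against 13.15, 10.78 and 14.61. LAPTM4B, a lysosomal membrane protein, COTL1 and PFN2, both actin-binding, were at 2.18 to 2.31 in TALL-1 and between 7.84 and 14.60 in the other lines.

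Notch target genes were more often higher than lower in TALL-1. Of 14 tested targets, 10 were called higher and 1 lower than the mean of the other lines, and 6 were set apart on the higher side. Against single lines, 11 were higher and 1 lower than in SUPT11, 9 and 1 than in P12.ICHIKAWA and 6 and 3 than in RPMI.8402. Their median difference was 2.28, against -0.04 over all tested genes. The 6 were HEY1, NRARP, DTX1, NOTCH3, PTCRA and IL7R. DTX1, an E3 ligase induced by Notch and named after its values were seen, read 11.61, 11.07 and 11.25 in TALL-1. On the other arrays DTX1 read 2.18 to 2.23 in SUPT11, 7.42 to 8.36 in P12.ICHIKAWA and 4.72 to 5.97 in RPMI.8402 (difference from their mean 6.19 ± 0.25, SE). Because of how DTX1 was chosen, no test is given for it. PTCRA, the pre-T-cell receptor alpha chain, read 7.54, 6.84 and 7.41 in TALL-1, against 3.94 to 4.77 on the other arrays (3.12 ± 0.16; adjusted p = 2.14e-08). IL7R, the interleukin-7 receptor, read 11.59, 11.32 and 11.49 in TALL-1, against 2.18 in SUPT11, 2.53 to 3.14 in P12.ICHIKAWA and 2.53, 2.92 and 6.97 in RPMI.8402. The difference of IL7R was 8.45 ± 0.74 (SE), and its highest reading outside TALL-1 came from the RPMI.8402 array with blood transcripts. No other array outside TALL-1 reached log2 4 for IL7R. It thus passed the filter through the TALL-1 arrays, and no test is given for it.

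The receptors themselves split the lines differently. NOTCH1 read 11.77, 11.82 and 11.49 in TALL-1, against 2.45 on all SUPT11 arrays, 10.59 to 10.86 in P12.ICHIKAWA and 11.85 to 12.09 in RPMI.8402. TALL-1 was thus close to RPMI.8402 in NOTCH1, the difference from it (-0.26) staying under the threshold of 1. NOTCH3, itself a target of NOTCH1, read 14.23, 14.33 and 14.19 in TALL-1, against 2.18 in SUPT11, 8.04 to 8.47 in P12.ICHIKAWA and 11.57 to 11.88 in RPMI.8402 (6.84 ± 0.095; adjusted p = 2.36e-13). HES1 was not set apart. It read 10.32, 10.34 and 10.44 in TALL-1, below the 11.41 to 11.53 of RPMI.8402 and above the 9.30 to 9.41 of P12.ICHIKAWA and the 5.17 of SUPT11.

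IGF1R and CCND3, growth factor receptor and cyclin under Notch control, were called higher without being set apart, at 12.50 and 13.70 in TALL-1. HES4 was called higher at a low level, 4.03 in TALL-1, against 4.23 in RPMI.8402 and the floor in the other lines, and not without TALL-1 array 1 (0.86). TRIB2, a pseudokinase, was the target called lower, at 11.14 in TALL-1, against 13.16, 11.84 and 12.24. MYC was not called from the mean of the other lines (-0.56 ± 0.083), with 12.12, 11.73 and 11.77 in TALL-1. It was at 11.93 in both SUPT11 and RPMI.8402 and at 13.44 in P12.ICHIKAWA. These 4 targets other than MYC were named after their values were seen. The series therefore holds TALL-1 with the highest levels of NRARP, HEY1, DTX1 and NOTCH3 and with a MYC level within 0.06 of SUPT11 and RPMI.8402.

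Of 15 tested receptors, ligands and modifiers, 4 were higher and 4 lower, with a median difference of -0.04. The fringe enzymes, which add sugars to Notch and change its response to ligands, were among those lower. LFNG was at 2.36 in TALL-1, against 11.17, 3.07 and 6.49 in SUPT11, P12.ICHIKAWA and RPMI.8402. MFNG read 7.95, 6.92 and 7.55 in TALL-1, against 11.67 to 11.74 in SUPT11, 11.63 to 12.05 in P12.ICHIKAWA and 10.04 to 10.15 in RPMI.8402 (-3.74 ± 0.17; adjusted p = 7.26e-09). NUMB, an inhibitor of Notch named after its values were seen, was at 7.42 in TALL-1, against 4.46, 5.02 and 4.69. Of 7 tested members of gamma-secretase and the sheddases that cleave Notch, 1 was called lower, the subunit gene APH1B, at 9.02 in TALL-1, against 11.52, 9.80 and 8.88.

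**Figure D3:**
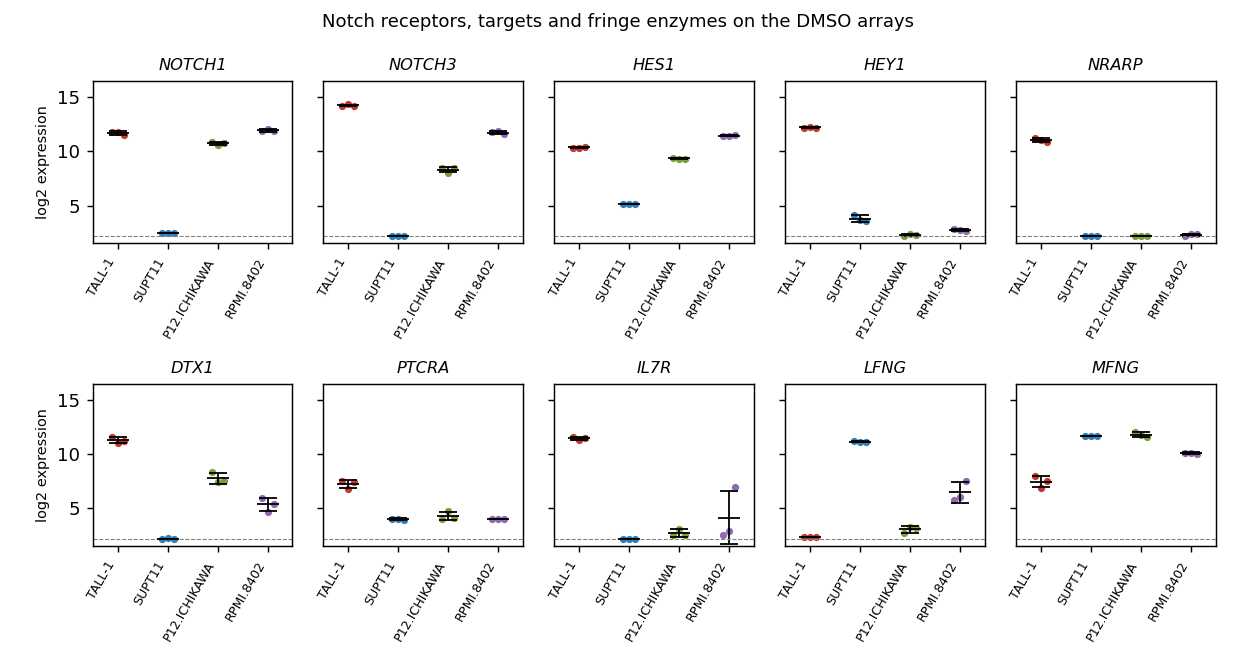
Points are the log2 expression of each DMSO array, with the mean and SD (n = 3) as black bars, for 10 Notch receptors, targets and fringe genes in TALL-1 (left), SUPT11, P12.ICHIKAWA and RPMI.8402; the dashed line is the floor. TALL-1 is highest for NOTCH3, HEY1, NRARP, DTX1, PTCRA and IL7R, second to RPMI.8402 for NOTCH1 and HES1, and lowest for LFNG and MFNG.

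Transcription factor genes that define T-ALL subtypes were mostly low in TALL-1, as many of them were in SUPT11 and P12.ICHIKAWA. Of 13 tested, 1 was called higher and 10 lower than the mean of the other lines, and none was set apart. By line, 1 was higher and 2 lower than in SUPT11, 0 and 3 than in P12.ICHIKAWA and 0 and 9 than in RPMI.8402. TAL1 was at the floor in TALL-1, SUPT11 and P12.ICHIKAWA and read 12.68, 12.33 and 12.48 in RPMI.8402. LYL1, LMO1, NKX2-1, HHEX and ERG were likewise bright in RPMI.8402 only, at 7.86, 9.58, 12.67, 12.68 and 12.92. LMO2 was bright in P12.ICHIKAWA only, at 12.37. LMO4 was at 10.25 in SUPT11 and 9.10 in RPMI.8402, MEF2C at 8.55 and 11.04 in the same lines, and MYCN at 9.75 in P12.ICHIKAWA and 12.44 in RPMI.8402. TALL-1 had none of these above 2.26, as its mean.

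The other 3 tested genes had signal in every line. MYB, a regulator of early haematopoietic growth, was at 14.81 in TALL-1, and at 10.22, 14.81 and 14.84 in SUPT11, P12.ICHIKAWA and RPMI.8402, so its call came from SUPT11. BCL11B, the factor that commits cells to the T lineage, was at 14.31 in TALL-1, against 14.11, 14.26 and 14.33, and was not called. MYC, given above, was the third.

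Of 7 tested early progenitor genes, 5 were called lower and none higher than the mean of the other lines, and none of the 7 was set apart. By line, 0 were higher and 1 lower than in SUPT11, 1 and 1 than in P12.ICHIKAWA and 0 and 3 than in RPMI.8402. CD34, the stem cell antigen, and GATA2 were at the floor in TALL-1, SUPT11 and P12.ICHIKAWA, and at 12.77 and 11.02 in RPMI.8402. SPINK2 was at 2.46 in TALL-1 and 8.34 in P12.ICHIKAWA. PBX3, a TALE cofactor of HOX proteins, was set apart at 2.26 in TALL-1, against 9.42, 9.09 and 9.20 in SUPT11, P12.ICHIKAWA and RPMI.8402, while MEIS1 and MEIS2 had signal in RPMI.8402 alone, at 6.61 and 8.58.

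Among oncofetal genes, 1 of 10 tested was higher and 6 were lower. LIN28B, which blocks the let-7 microRNAs, was set apart at 2.26 in TALL-1, against 10.98, 13.69 and 11.06. IGF2BP3, an RNA-binding protein of fetal tissue, was set apart at 4.64, against 12.90, 12.99 and 11.11. IGF2BP2 was at 2.29 in TALL-1 and bright in SUPT11 only, at 12.67, and POU2AF1 was at the floor in TALL-1 and SUPT11 and at 10.13 and 11.05 in P12.ICHIKAWA and RPMI.8402. PRAME, a cancer-testis gene, was at the floor in TALL-1 and had signal in SUPT11 only, at 5.94.

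T cell surface genes moved both ways. Of 25 tested, 9 were called higher and 11 lower in TALL-1. CD8A, the alpha chain of the CD8 coreceptor, read 12.04, 11.95 and 11.95 in TALL-1, against 2.18 in SUPT11, 4.30 to 5.97 in P12.ICHIKAWA and 2.18, 2.18 and 4.26 in RPMI.8402 (8.59 ± 0.44; adjusted p = 1.71e-08). CD2, an adhesion receptor, read 11.50, 11.28 and 11.33 in TALL-1, against 7.47 to 7.70 in SUPT11, 2.19 to 2.22 in P12.ICHIKAWA and 8.70 to 8.89 in RPMI.8402. CD7 was at 10.81 in TALL-1, against 8.47, 8.42 and 5.45. These were the genes set apart on the higher side. CD1A, the cortical thymocyte antigen, named after its values were seen, was shared with P12.ICHIKAWA, at 10.43 in TALL-1 and 10.89 in P12.ICHIKAWA and at the floor in SUPT11 and RPMI.8402. CD1B and CD1E, named likewise, were bright in P12.ICHIKAWA, at 13.41 and 13.39, and were at 3.64 and 2.49 in TALL-1.

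On the lower side, CD28, the costimulatory receptor, was at 2.18 on all 3 TALL-1 arrays, against 13.44 to 13.57 in SUPT11, 11.39 to 11.53 in P12.ICHIKAWA and 12.29 to 12.38 in RPMI.8402 (-10.24 ± 0.045; adjusted p = 6.07e-17). CD5, an inhibitor of receptor signalling, read 2.38, 2.18 and 2.18 in TALL-1, against 9.03 to 11.78 on the other arrays. CD52, the target of alemtuzumab, read 7.65, 7.32 and 6.96 in TALL-1, against 15.04 to 15.14 in SUPT11, 11.38 to 11.55 in P12.ICHIKAWA and 11.85 to 12.12 in RPMI.8402. These 3 were set apart.

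Of 15 tested genes of the receptor complex and its recombination, 2 were higher, among them PTCRA, given above, and 2 lower, or 26.7% called, against 30.5% of all tested genes. CD3D was at 14.88 in TALL-1, against 14.17, 14.66 and 14.64, and CD3E at 12.94, against 12.36, 12.68 and 12.25. Neither was called. DNTT, the enzyme that adds nucleotides at receptor joints, was at 13.03 in TALL-1 and 14.89 in RPMI.8402, and at 2.18 and 3.78 in SUPT11 and P12.ICHIKAWA. RAG1, the recombinase, was at 3.44 in TALL-1, against 2.18, 14.83 and 8.05 in SUPT11, P12.ICHIKAWA and RPMI.8402, and RAG2 was bright in P12.ICHIKAWA only, at 8.75. TRBC1, a constant gene of the receptor beta chain, was at 15.34 in TALL-1, against 14.61, 15.25 and 14.94, and was not called. Its difference of 0.41 turned to -1.15 when all its probe sets were averaged, one of which was at 9.06 in TALL-1, against 14.74, 8.41 and 15.07 in SUPT11, P12.ICHIKAWA and RPMI.8402.

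Of 21 tested T lineage transcription factors, 8 were higher and 5 lower. RUNX3, which acts in CD8 T cells, was at 10.90 in TALL-1, against 9.89, 5.73 and 3.78 in SUPT11, P12.ICHIKAWA and RPMI.8402 (4.43 ± 0.22; adjusted p = 1.50e-08). BCL6, the repressor that directs follicular helper T cells, read 10.97, 10.64 and 10.86 in TALL-1, against 7.90 to 8.09 in SUPT11, 5.12 to 5.63 in P12.ICHIKAWA and 3.79, 3.79 and 9.19 in RPMI.8402. Without RPMI.8402 array 3, the blood-transcript array, the difference of BCL6 was 5.11 in place of 4.51. GATA3, the helper T cell factor named after its values were seen, was at 12.13 in TALL-1, against 10.74, 10.31 and 10.32. ID2, an inhibitor of E proteins, was set apart on the lower side, at 2.25 in TALL-1, against 12.80, 5.28 and 7.41. BCL11A was at 13.15 in TALL-1 and absent only from SUPT11, at 2.18.

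**Figure D4:**
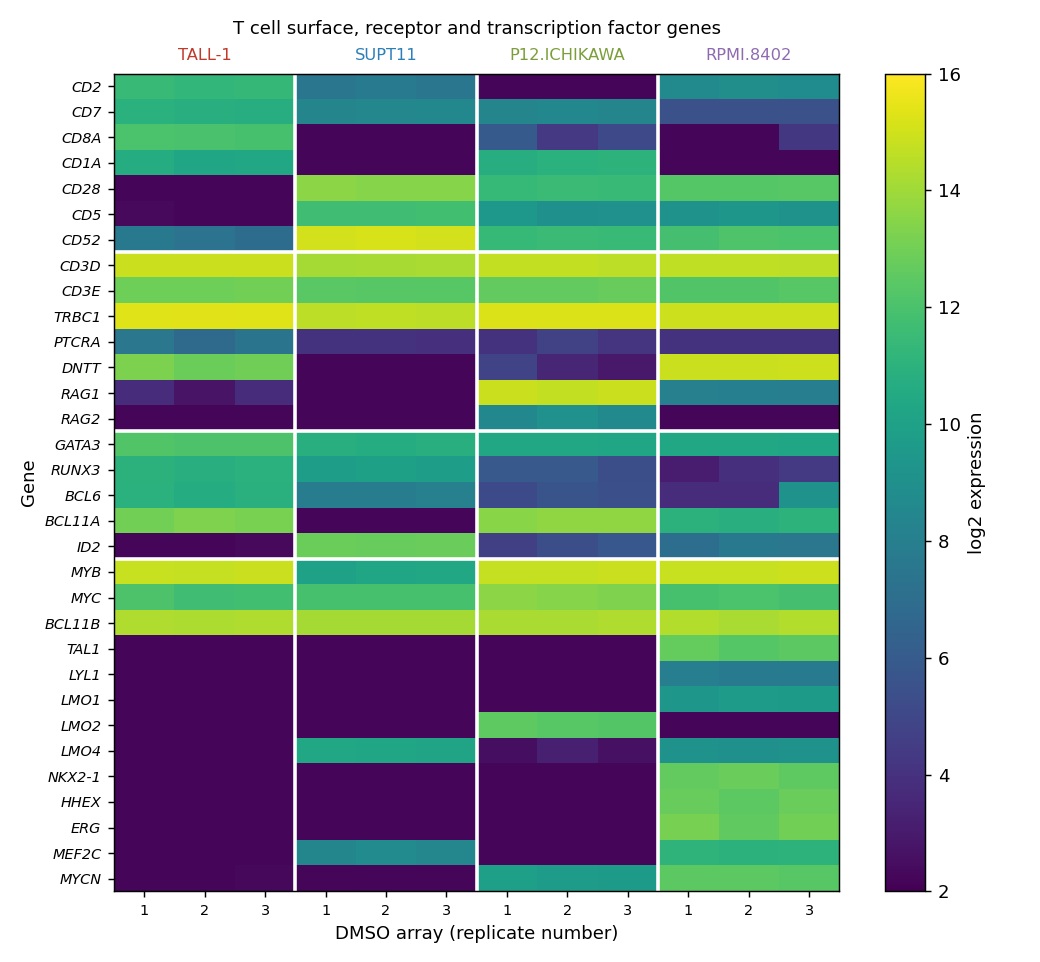
Colour gives log2 expression for genes (rows) on the 12 DMSO arrays (columns, TALL-1 at the left), in 4 blocks: surface proteins, receptor and recombination genes, T lineage factors and T-ALL oncogenic factors. TALL-1 is bright for CD2, CD7, CD8A and DNTT, dark for CD28, CD5, RAG2 and ID2, and dark for all oncogenic factors except MYB, MYC and BCL11B.

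Of 25 tested cytokine receptors and JAK-STAT genes, 5 were higher and 10 lower. Besides IL7R, IL2RB, the beta chain of the interleukin-2 receptor, was set apart on the higher side at 7.3, 6.52 and 6.79, against 2.18 to 4.0 on the other arrays. SOCS2, a feedback inhibitor induced by STAT5, read 2.19, 2.18 and 2.18 in TALL-1, against 4.24, 9.68 and 11.43 as the means of SUPT11, P12.ICHIKAWA and RPMI.8402. STAT5A was at 3.22 in TALL-1 and 2.79 in SUPT11, and at 10.54 and 12.23 in P12.ICHIKAWA and RPMI.8402.

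Of 9 tested chemokine and homing receptors, 2 were higher and 5 lower. CCR8, a receptor of thymocytes and regulatory T cells, was set apart at 9.21 in TALL-1, against 2.18, 6.35 and 3.54. S1PR1, which lets T cells leave the thymus, was set apart at 2.38, against 10.23, 5.18 and 10.88. CCR7 was at 2.23 in TALL-1 and 10.10 in SUPT11, and CCR9, the gut and thymus receptor, at 3.54 in TALL-1 and at 2.19, 10.18 and 8.20 in SUPT11, P12.ICHIKAWA and RPMI.8402. In the probe set used, CXCR4 was near the top of the scale in every line, at 15.91 in TALL-1 and 15.70 to 15.81 in the others. Its other probe sets were higher in TALL-1, by 1.32 and 1.31 from the mean of the other lines, and were not tested. The first of them was at 13.74 in TALL-1, against 12.48, 12.77 and 12.01 in SUPT11, P12.ICHIKAWA and RPMI.8402.

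Of 17 tested integrins and adhesion molecules, 6 were higher and 6 lower. ITGA1, the collagen-binding alpha-1 integrin, read 11.84, 11.66 and 11.77 in TALL-1, against 2.18 to 4.91 on the other arrays (8.76 ± 0.12; adjusted p = 2.16e-13). ITGAV was at 2.46 in TALL-1, against 10.40, 8.59 and 9.43, and JAM3, a junction protein, at 8.79, against 13.01, 13.91 and 13.31. SELPLG, the selectin ligand, was at 5.21 in TALL-1, against 10.86, 9.64 and 6.52. All 4 were set apart.

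At the 9p21 locus, TALL-1 and SUPT11 had signal that the other lines lacked in the probe sets used here. CDKN2A, which encodes the cell cycle inhibitor p16, read 10.22, 10.11 and 9.85 in TALL-1 and 10.97, 11.22 and 11.10 in SUPT11, and 2.23 to 2.28 in P12.ICHIKAWA and RPMI.8402. Its neighbour MTAP, a methionine salvage enzyme, was at 10.35 in TALL-1 and 9.63 in SUPT11, and at 2.18 on all arrays of P12.ICHIKAWA and RPMI.8402. Only 1 other MTAP probe set had signal in P12.ICHIKAWA, at 5.20, against 8.18 in TALL-1, 6.12 in SUPT11 and 2.18 in RPMI.8402. Of 18 tested G1 genes, 6 were higher and 1 lower, CCND2 being the one lower. TALL-1 thus had signal for CDKN2A, CDK6 and CCND3 and none for CCND2.

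Of 10 tested BCL2 family genes, 4 were higher and 2 lower. BCL2L11, which encodes the death protein BIM, was at 11.94 in TALL-1, against 9.30, 10.35 and 9.45 in SUPT11, P12.ICHIKAWA and RPMI.8402 (2.24 ± 0.058; adjusted p = 4.73e-11). BCL2L1, which encodes the survival protein BCL-XL and was named after its values were seen, was at 8.93, against 6.09, 7.09 and 6.98. Both were set apart. BCL2 and PMAIP1 (NOXA) were bright in TALL-1, at 12.75 and 13.42, and missing only in SUPT11, at 2.21 and 2.18. BIK, a death protein of the ER, read 3.77, 4.18 and 2.18 in TALL-1, against 8.24 to 9.55 on the other arrays.

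Genes of the endoplasmic reticulum (ER) stress response and of ATF4 were more often higher than lower. Of 26 tested, 11 were higher, 4 lower and 6 set apart on the higher side, with a median difference of 0.75. SLC7A11, the cystine importer, was at 10.66 in TALL-1, against 7.60, 7.88 and 8.07 (2.81 ± 0.14; adjusted p = 1.16e-08). The other 5, named after their values were seen, were the ER stress sensors ERN1 (12.74, against 9.71, 11.04 and 9.89) and EIF2AK3 (11.05, against 9.82, 9.37 and 9.77) and the ER proteins DNAJB9, SDF2L1 and CRELD2. DNAJB9, a cochaperone, was at 12.71, against 11.18, 10.73 and 10.53. EIF2AK3 lost its call when all probe sets were averaged (0.70). XBP1, the factor spliced by ERN1, was at 11.87 in TALL-1, and at 7.28, 2.68 and 11.27 in SUPT11, P12.ICHIKAWA and RPMI.8402.

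The ATF4 part of the list did not move as a block. PSAT1 was set apart on the lower side and ASNS, asparagine synthetase, was at 5.89 in TALL-1, against 13.23, 8.96 and 5.12. ATF4 itself was at 14.73, against 14.63, 14.67 and 14.43, and was not called. HSPA5, the main ER chaperone, looked up after its values were seen, was at 14.15, against 13.07, 13.37 and 13.23. Its difference of 0.93 was under the threshold of 1, and it passed with median centring (1.01) or with all probe sets averaged (1.96).

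Of 17 tested zinc transporters, none was higher and 2 were lower. SLC30A4, which loads zinc into vesicles, read 2.22, 2.61 and 2.18 in TALL-1, against 11.32 to 11.37 in SUPT11, 8.33 to 9.02 in P12.ICHIKAWA and 10.98 to 11.10 in RPMI.8402 (-8.02 ± 0.13; adjusted p = 9.45e-13). SLC39A4, an intestinal zinc importer, was at 4.46 in TALL-1, against 8.90, 7.28 and 7.45. SLC39A7 (ZIP7), the target of NVS-ZP7-3, was at 9.37, 9.07 and 9.21 in TALL-1. It was at 9.81, 10.00 and 9.53 in SUPT11, P12.ICHIKAWA and RPMI.8402, and its difference of -0.56 ± 0.10 did not pass. SLC39A9, a Golgi zinc transporter, was at 14.30 in TALL-1 and 13.28 to 14.15 in the others. MT2A, a metallothionein, was at 10.47 in TALL-1, against 9.82, 11.80 and 11.58, and was not called. Of 7 metallothionein-list genes tested, 1 was called lower, MT1F, at 7.20 in TALL-1, against 8.55, 8.27 and 8.16.

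Of 24 tested chromatin regulators of T-ALL, 1 was called higher and 2 lower. TET2, which oxidises methylated cytosine, was at 2.18 on all 3 TALL-1 arrays, against 11.30 ± 0.036, 9.97 ± 0.061 and 10.04 ± 0.037 in SUPT11, P12.ICHIKAWA and RPMI.8402 (SD, n = 3; difference -8.26 ± 0.039, SE; adjusted p = 7.90e-17). PHF6, a plant homeodomain protein mutated in many T-ALL, read 8.64, 8.61 and 8.41 in TALL-1, against 12.17 to 12.80 on the other arrays (-3.97 ± 0.092; adjusted p = 1.75e-11). Both were set apart. TET1, a relative of TET2, was the one called higher, at 10.81 in TALL-1, against 11.13, 8.64 and 9.57. Its other probe set placed SUPT11 lowest, at 10.86 in TALL-1 and 8.18, 9.29 and 10.10 in SUPT11, P12.ICHIKAWA and RPMI.8402.

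Interferon-stimulated genes split, with 8 of 21 tested higher and 6 lower. OAS2, an RNA sensor, was set apart at 6.51 in TALL-1, against 2.21, 3.61 and 4.98, and IFI44 at 12.16, against 6.85, 10.12 and 10.95. OAS3 was at 9.22 in TALL-1, against 2.52, 6.48 and 9.03. IFIT1 was set apart on the lower side at 2.47, against 4.31, 5.91 and 7.34. Of 12 tested MHC genes, 3 were lower and none higher. TAP2, a peptide transporter, was set apart at 7.18, against 8.76, 10.22 and 9.96, PSMB9, an immunoproteasome subunit, was at 9.86, against 10.33, 11.93 and 11.85, and NLRC5, their activator, was at the floor in TALL-1 and SUPT11.

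In metabolism, PFKM, a phosphofructokinase, was set apart on the lower side at 9.99 in TALL-1, against 12.08, 12 and 12.22, and PDK1, which restrains pyruvate oxidation, was called higher at 12.93, against 11.98, 11.49 and 10.98. Of 20 tested genes of glucose uptake and glycolysis, 3 were higher and 2 lower. PFKP, another phosphofructokinase, was called higher at 12.19, against 9.27, 11.33 and 12.09, and ALDOC, an aldolase, lower at 2.96, against 9.19, 3.01 and 8.53. TXNIP, a brake on glucose uptake and a glucocorticoid-induced gene, was set apart at 9.98, against 12.59, 11.85 and 12.36. The glucocorticoid receptor NR3C1 was at 10.50 in TALL-1, against 13.30, 12.17 and 10.37, and one other probe set of NR3C1 went the other way, at 7.64 in TALL-1 and 6.15, 5.50 and 2.47 in the others. In the list of the glucocorticoid receptor and its response, 4 of 11 tested genes were lower and none higher than the mean of the other lines. By line, 1 was higher and 4 lower than in SUPT11, 0 and 2 than in P12.ICHIKAWA and 0 and 2 than in RPMI.8402. The glucocorticoid-induced genes TSC22D3 and KLF9 were called lower, at 3.38 and 2.18 in TALL-1, against 8.93 and 9.73 in SUPT11. Another KLF9 probe set was at 2.19 in TALL-1, and at 9.23, 2.20 and 2.51 in SUPT11, P12.ICHIKAWA and RPMI.8402. ADA, the target of pentostatin, was at 13.74 in TALL-1 and missing only in SUPT11, and SAMHD1, which degrades nucleoside analogues, was at 2.22 in TALL-1 and bright only in SUPT11, at 12.94. PNP, a purine phosphorylase, was called higher at 12.06, against 11.02, 11.11 and 11.01. PHLPP2, a phosphatase of AKT, was set apart at 7.68, against 10.09, 10.40 and 10.60, while PHLPP1 was at 12.94 in TALL-1, and at 2.45, 12.36 and 11.83. AKT1 was called higher at 11.92, against 11.35, 10.80 and 9.50, and RPTOR, an mTOR partner, lower at 5.02, against 7.19, 6.11 and 5.15.

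**Figure D5:**
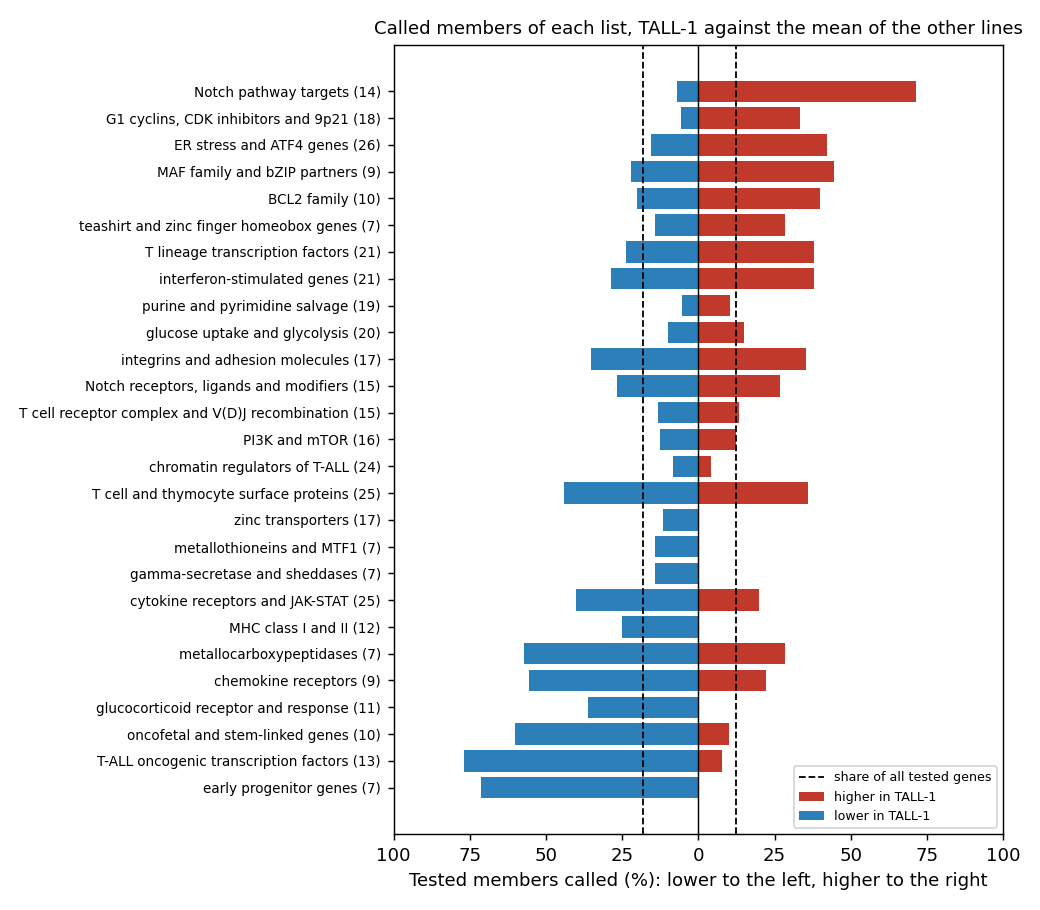
Bars give the share of tested members of each list with at least 7 tested (number tested in brackets) called higher (red, to the right) or lower (blue, to the left) in TALL-1 than in the mean of the other lines, with the shares of all tested genes, 12.4% and 18.1%, as dashed lines. Among these lists, Notch pathway targets have the highest share of higher members, and T-ALL oncogenic factors and early progenitor genes the highest shares of lower members. No member of the oncogenic factor or early progenitor lists was set apart, and their lower calls by line were most frequent against RPMI.8402.

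By chromosome, the differences were uneven. The median difference of TALL-1 from the mean of the other lines was 0.81 over the 204 tested genes of chromosome 13, 0.67 over 412 of chromosome 10, 0.52 over 120 of chromosome 21 and 0.49 over 361 of chromosome 14. It was -0.46 over the 594 of chromosome 3. Over all tested genes it was -0.04. Genes set apart on the higher side made up 17.2% of those tested on chromosome 13, 20.8% on chromosome 21, 9.71% on chromosome 10 and 9.14% on chromosome 14, against 4.0% of all. On chromosome 3, 7.58% were set apart on the lower side, against 5.09% of all. The medians of chromosomes 13, 10, 21 and 14 were above 0 against each line alone, the lowest being 0.19 for chromosome 14 against SUPT11. On the treated arrays they were 0.79, 0.69, 0.46 and 0.49, and -0.39 for chromosome 3. Genes of a chromosome are not replicates, DNA copy number was not measured, and its part in these values was not tested.

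The 12 arrays of NVS-ZP7-3-treated cells gave the same comparison between lines on arrays that the baseline did not use. There, 3201 genes (30.7%) were called, 1394 higher (13.3%) and 1807 lower (17.3%) in TALL-1. Of those called higher at baseline, 1095 were called higher after treatment, 84.4% of the baseline genes and 78.6% of the treated ones. Of those called lower, 1613 were shared, 85.5% of the baseline genes and 89.3% of the treated ones. Treated cells share the line's own features as well as its response, and 20 of 38 genes at log2 10 or more in all other lines and absent from TALL-1 read above 3 on TALL-1 treated array 2, against none on the other 5 TALL-1 arrays. Blood transcripts were also present on treated arrays. HBB read 7.96 on TALL-1 array 1, 10.61 on SUPT11 array 2, 7.96 to 11.45 in P12.ICHIKAWA and 8.63 to 12.99 in RPMI.8402. LYZ read 9.04 on TALL-1 array 1 and 9.88 on RPMI.8402 array 3. Their part in the treated comparison was not tested.

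After treatment the difference of TSHZ3 was 10.14, that of MAF 8.49 and that of CPA4 8.54, against 10.30, 9.49 and 9.24 at baseline. NRARP differed by 6.95 and HEY1 by 8.21, against 8.82 and 9.28. NOTCH3 differed by 7.89, against 6.84, and CCR8 by 2.32, against 5.18. GATA3, MYB, CCR9 and TXNIP were not called after treatment, at 0.57, 0.93, -0.24 and -0.85. Tests of these changes in the difference are not reported here.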

How the data were processed

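RNA of 4 T-ALL cell lines, with DMSO or NVS-ZP7-3, was measured on 24 Affymetrix 3' expression arrays, 3 for each of 8 groups. The deposited log2 values name GCRMA, per the submitters' processing notes; parameters are not given in the sources used here. Array number, not read depth, limits the precision. Of 54675 probe sets, 41097 named 1 gene, 1801 several and 11777 none, and 41043 were updated to current symbols. Each gene was represented by its probe set with the highest mean over the 12 DMSO arrays. Genes at log2 4 or more on at least 3 DMSO arrays were tested with limma 3.58.1 (R 4.3.3), with 4 group means, no covariate and Benjamini-Hochberg adjustment. Treated arrays were fitted apart. Differences from the floor are lower limits, and the SE and p of such genes may be too small. The fit was tested on simulated data. Genes were named by a rule: TSHZ3, MAF and CPA4, the 12 farthest above and below the nearest line, the 4 largest differences each way from each line, up to 4 called members of each list and up to 2 not called, all tested members of the oncogenic factor, MAF, teashirt and carboxypeptidase lists, 7 fixed genes, and the genes most like the first 3. The called members taken from a list were those with the largest differences. List members that were not called are in part given only by their counts. Cell type markers were fixed apart. The members and lists were chosen with earlier results of these data known. GATA3, CD1A, CD1B, CD1E, DTX1, HES4, IGF1R, CCND3, TRIB2, NUMB, BCL2L1, ERN1, EIF2AK3, DNAJB9, SDF2L1, CRELD2, HSPA5 and PHGDH fell outside it and were chosen after their values were seen. Promoters are from RefSeq, GRCh38.p14. Alternatives covered the filter, probe set choice, scaling, thresholds, fit, replicate block, and left-out arrays and lines. List members with no single-gene probe set were not analysed here.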

Additional observations from a re-analysis of the deposited data

Results flagged for a closer look

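For 13 genes the difference between TALL-1 and the mean of the other lines was called in opposite directions on DMSO and on treated arrays. They were chosen for this, and the choice itself sets a change of at least 2, so the change of the difference, treated minus DMSO, is given as a description with no test. It was positive for FGFBP2 (5.46), ISG20 (4.71), LINC02806 (4.56), ALOX5AP (4.25), FBXO32 (4.03), SERPINF1 (3.61), ATP10D (3.06), ESRP1 (3.00), FZD2 (2.28) and DLX2 (2.17). It was negative for GBP4 (-2.89), CMAHP (-2.70) and C17orf67 (-2.64). ISG20, an interferon-induced exonuclease, averaged 10.5 in treated TALL-1 and 7.89 in the treated other lines, and 4.29 in DMSO TALL-1 and 6.43 in the DMSO other lines. FBXO32, a ubiquitin ligase of muscle atrophy, averaged 8.77 in treated TALL-1 and 7.33 in the treated other lines, and 3.15 in DMSO TALL-1 and 5.75 in the DMSO other lines.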

How the results depend on the processing

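Of 5354 gene-by-alternative values for the 185 genes given, 5200 kept direction and call, 111 lost the call, 21 gained one and 22 reversed. The reversals were LITAF (-0.031), CD1B (1.45), CD1E (0.30) and BACH2 (0.20) without P12.ICHIKAWA, PEBP1 (-0.028), UBLCP1 (-0.18), NFE2L2 (-0.019), ADNP (0.0020), ZFHX3 (0.53) and CPD (-0.18) without RPMI.8402, MYB (-0.019), HES1 (-0.040), ITGB7 (0.00070), BACH2 (0.74) and CPA5 (0.20) without SUPT11, TRBC1 (-1.15) and ADNP (0.10) with all probe sets averaged, and ADNP (0.055) with median centring. Without 1 array at a time, ZFHX3 ranged from -0.81 to 0.22 and CPD from -0.0079 to 0.11. The cause of these reversals was not tested, beyond the line left out. With a minimum difference of 2, 1605 genes were called against the mean of the other lines, 2089 against SUPT11, 1348 against P12.ICHIKAWA and 1551 against RPMI.8402, and with no minimum 8046, 8108, 7145 and 7229. Genes set apart numbered 1584 without SUPT11 and 1437 without P12.ICHIKAWA, since fewer lines had to differ. Leaving out 1 array at a time gave 3141 to 3221 genes against the mean, 943 to 990 set apart, 3802 to 3924 against SUPT11, 2655 to 2736 against P12.ICHIKAWA, 2904 to 2968 against RPMI.8402 and 3157 to 3214 on treated arrays. The deviations of same-numbered arrays correlated with r from -0.356 to 0.210 over 18 pairs, of which 5 were over 0.1, so the numbers were not taken as pairs, and a replicate block gave 3182, 950, 3857, 2714 and 2931 in the order mean, set apart, SUPT11, P12.ICHIKAWA, RPMI.8402. Of 418 genes set apart on the higher side, 44 were below log2 2.5 on all 9 arrays of the other lines, and of 532 on the lower side, 173 were so on all 3 TALL-1 arrays. The size of these differences is limited by the floor, as is that of genes at the floor in some of the other lines, which were not counted.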
